A study of Mus musculus with 6 samples.

Results

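The genes of transforming growth factor beta (TGF-beta) signalling outside the nucleus were followed across 6 arrays of mouse cardiomyocyte-enriched cells. They were 10 genes chosen by symbol: the ligand genes Tgfb1, Tgfb2 and Tgfb3, the receptor genes Tgfbr1, Tgfbr2 and Tgfbr3, and the latency protein genes Ltbp1, Ltbp2, Ltbp3 and Ltbp4. Together they had 28 of the 45281 probes of the array and made up 10 of its 19057 named genes. All mice were C57BL/6J, and each group had 2 arrays. The sham group underwent sham surgery, and no drug or vehicle is named for it. The TAC_DMSO group underwent transverse aortic constriction (TAC), which narrows the aorta and raises the pressure load on the left ventricle, and received the solvent DMSO. The TAC_BIX group underwent the same constriction and received BIX-01294, an inhibitor of the histone H3 lysine 9 methyltransferases G9a and GLP, for 1 week from subcutaneous osmotic pumps. The labels do not state how many mice stand behind each array, their age or how long DMSO was given, so p-values measure the spread between these arrays, which may be technical. Effects of constriction and of DMSO cannot be told apart, because sham has no named vehicle.

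TGF-beta ligands are secreted in a latent form, in which the cleaved propeptide stays around the ligand and is bound by a latent TGF-beta binding protein (LTBP) that anchors the complex in the extracellular matrix. Integrins or proteases free the ligand, which binds the kinase receptor encoded by Tgfbr2. That receptor then activates the kinase receptor encoded by Tgfbr1, which phosphorylates Smad2 and Smad3. The coreceptor betaglycan, encoded by Tgfbr3, presents ligand and is of particular importance for TGF-beta2. In the heart the pathway is known for driving fibroblasts to become myofibroblasts and deposit matrix after injury or pressure load.

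Between 36.7% and 40.9% of all probes were detected per array, and mean signals ran from 296 to 439. Across probes the arrays of a group correlated with r of 0.9885 to 0.9916, and arrays of different groups with r of 0.9739 to 0.9888. Of 12 cardiomyocyte markers 11 were measured, and all 11 were detected on every array. The cells were enriched and not pure, since 11 of 12 fibroblast, 11 of 12 endothelial, 10 of 12 smooth muscle and pericyte and 9 of 12 macrophage and leukocyte markers were also measured. In such bulk samples fewer cells of a type and less RNA per cell cannot be told apart.

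The sequences just upstream of the annotated start are shown for Tgfb2, the member that passed the test in 1 comparison, and for Tgfb1, a ligand gene that passed in none and overlapped between all groups. Each runs over the 250 bases before the start, 5' to 3' on the gene's strand, from RefSeq on GRCm38.p6. The Tgfb2 window is chr1:186705990-186706239 on the minus strand and the Tgfb1 window chr7:25686752-25687001 on the plus strand. Capitals mark matches to the motifs searched.
Tgfb2: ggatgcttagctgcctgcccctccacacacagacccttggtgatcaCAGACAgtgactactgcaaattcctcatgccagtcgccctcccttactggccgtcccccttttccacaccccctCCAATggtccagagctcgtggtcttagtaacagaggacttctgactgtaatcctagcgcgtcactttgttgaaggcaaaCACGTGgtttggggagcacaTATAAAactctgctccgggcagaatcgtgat
Tgfb1: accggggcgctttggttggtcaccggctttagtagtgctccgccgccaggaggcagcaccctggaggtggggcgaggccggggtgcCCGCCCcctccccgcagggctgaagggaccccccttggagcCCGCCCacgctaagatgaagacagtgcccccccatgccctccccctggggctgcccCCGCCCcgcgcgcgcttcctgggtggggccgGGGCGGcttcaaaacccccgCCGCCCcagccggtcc
The Tgfb2 window held 1 TATA box (TATAAA) starting 31 bases upstream, 1 E-box (CACGTG) at 51, 1 CCAAT box (CCAAT) at 130 and 1 CAGA box (CAGACA) at 204. The Tgfb1 window held none of these but 5 GC boxes (GGGCGG), of which Tgfb2 had 0, and its G and C content was 75.2% against 53.6% for Tgfb2. Both strands were searched, and in these windows no match overlapped another. Of the 32851 windows of this length in the table, 12.4% held a TATA box, 6.02% an E-box, 33.8% a CCAAT box, 17.1% a CAGA box and 32.7% a GC box. The cAMP response element TGACGTCA, the AP-1 motif TGANTCA and the Smad palindrome GTCTAGAC were in neither window, against 1.55%, 6.75% and 0.167% of all windows. These matches describe letters only, and binding at these sites was not measured.

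The array measured 9 of the 10 genes. Of the 28 probes, 16 were detected (detection p-value under 0.05) on at least 2 arrays and were kept, 11 were detected on all 6 arrays and 9 on none. Where a gene had several kept probes, the brightest on average stands for it, and all 9 probes so chosen were detected on all 6 arrays. Ltbp2, whose protein belongs to the LTBP family but does not bind latent TGF-beta, had 2 probes that were detected on no array. Their deposited signals of 99.7 to 122 had detection p-values of 0.113 to 0.728, so Ltbp2 was below detection in all 3 groups and has no fold change. Values from here on are background-corrected, quantile-normalized signals on the log2 scale. Levels of different probes are not comparable with each other, so each gene is set only against itself.

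Set against sham, TAC_DMSO shows how these transcripts differed after constriction with the solvent. With limma, 0 of the 9 genes passed an adjusted p under 0.05, where 0.408% of all 10538 genes passed. The largest difference was that of Tgfb2. At an unadjusted p under 0.05 there were 2 members, Tgfb2 and Tgfbr3, against 22.4% of all genes. The 9 differences had a median of 0.13 log2, against -0.01 for all genes, and 7 were above 0, against 48.5% of all genes. The groups did not overlap for 5 of 9 members, against 53.8% of all genes.

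The effect of the drug under constriction is read from TAC_BIX against TAC_DMSO. Again 0 of 9 members passed with limma, where 0.00% of all genes passed, and 0 had an unadjusted p under 0.05, against 19.8% of all genes. The differences ran from -0.17 to 0.54 with a median of 0.24, against 0.03 for all genes. Of the 9, 6 were above 0, against 53.4% of all genes. The groups did not overlap for 2 members, Tgfbr3 and Ltbp4, against 51.7% of all genes.

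TAC_BIX was also compared with sham, which combines constriction and drug and shares its sham arrays with the first comparison. Tgfb2 rose, and it was the 1 member of 9 that passed, where 6.65% of all genes passed. The 9 differences had a median of 0.52 against 0.00 for all genes, with 6 above 0, against 49.6% of all genes. For 8 of 9 members TAC_BIX and sham shared no values, against 58.4% of all genes. An unadjusted p under 0.05 was found for 2 members, Tgfb2 and Ltbp4, against 26.4% of all genes. Scaling each array to its median in place of quantile normalization moved the median of all genes to 0.31, 0.23 and 0.53 in the 3 comparisons, so differences near 0 depend on the scaling.

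**Figure D1:**
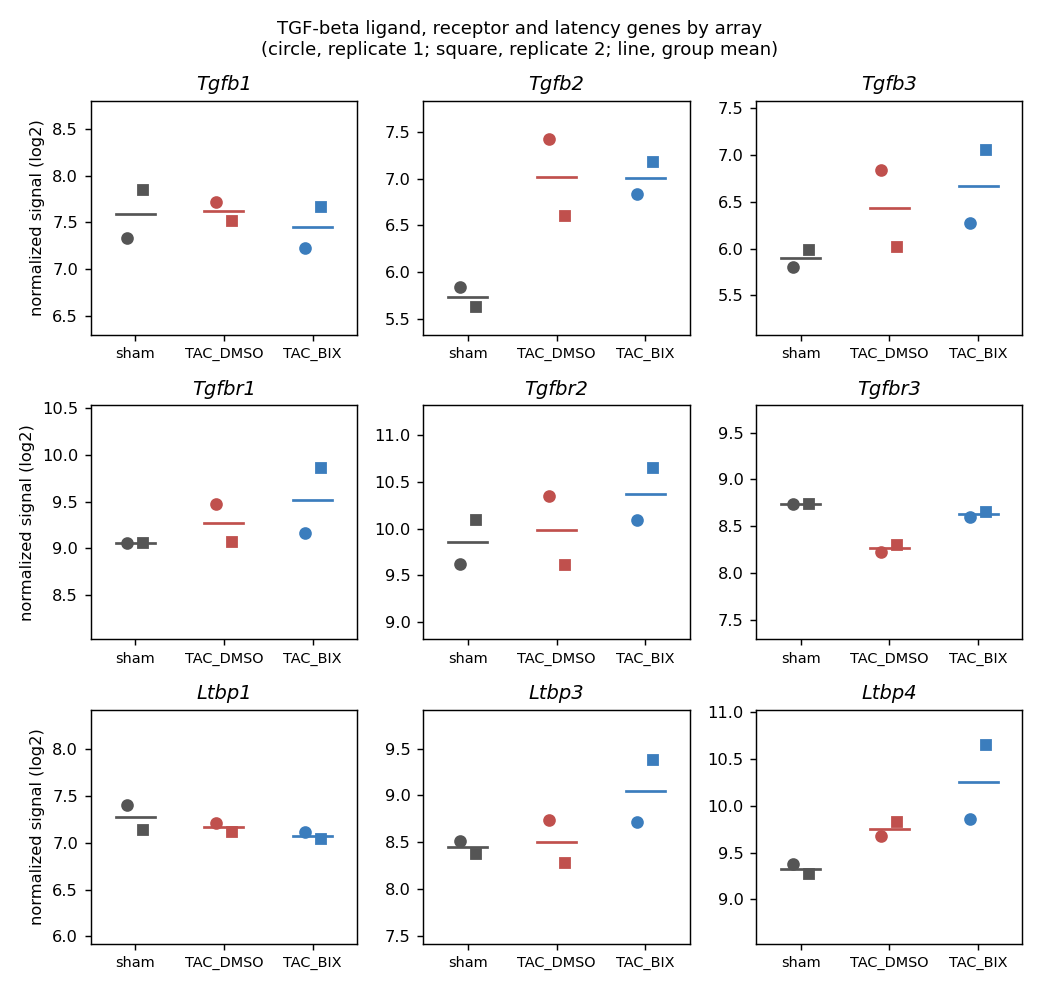
Normalized signal (log2, vertical axis, spanning the same width in each panel) of the 9 measured genes on each array, by group; circles are replicate 1, squares replicate 2 and lines group means. Tgfb2 lies between 5.62 and 5.84 in sham and between 6.60 and 7.42 on the 4 arrays after constriction, while Tgfb1 overlaps between all groups.

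Tgfb2 encodes the ligand isoform that depends most on betaglycan for receptor binding. It measured 5.84 and 5.62 on the sham arrays, 7.42 and 6.60 on the TAC_DMSO arrays and 6.83 and 7.17 on the TAC_BIX arrays. All 4 arrays after constriction were above both sham arrays, and the 2 constricted groups overlapped. Its deposited signals were 140 and 123 on the sham arrays, 284 and 185 on the TAC_DMSO arrays and 226 and 293 on the TAC_BIX arrays, so sham lay close to the background of the array. The sham mean was 5.73 ± 0.15 and the TAC_DMSO mean 7.01 ± 0.58, and the TAC_BIX arrays had an SD of 0.24 (n = 2 per group). TAC_BIX was 2.41-fold above sham (1.27 ± 0.28 log2, SE; limma adjusted p = 0.0421). TAC_DMSO was 2.44-fold above sham, which did not pass (1.28 ± 0.28, limma adjusted p = 0.0764). Between the constricted groups the difference was -0.01 ± 0.28, with a 95% interval of -0.67 to 0.65 (adjusted p = 0.987). The interval leaves room for a rise or a fall of Tgfb2 with the drug.

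Without background correction the Tgfb2 difference from sham was 0.59 in TAC_BIX and 0.61 in TAC_DMSO, and neither passed (limma adjusted p = 0.0689 and 0.0885). With the authors' processed values it was 0.42 in TAC_BIX and 0.44 in TAC_DMSO against sham, and neither passed (limma adjusted p = 0.116 and 0.132). Over 15 alternatives the TAC_BIX difference stayed above 0, from 0.42 to 1.85, with an adjusted p of 0.000524 to 0.283. With arrays left out in turn, the call was lost without sham replicate 1 (adjusted p = 0.121), sham replicate 2 (0.156), TAC_BIX replicate 1 (0.0928) or TAC_BIX replicate 2 (0.283). In TAC_DMSO against sham it was gained without TAC_DMSO replicate 2 (1.70, adjusted p = 0.0411).

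Tgfb3, the ligand gene of mesenchymal cells and palate fusion, differed between replicates after constriction. It measured 5.81 and 5.98 on the sham arrays, 6.84 and 6.02 on the TAC_DMSO arrays and 6.28 and 7.06 on the TAC_BIX arrays. All 4 arrays after constriction were above sham, TAC_DMSO replicate 2 by only a small margin. The differences were 0.54 ± 0.33 for TAC_DMSO and 0.77 ± 0.33 for TAC_BIX against sham (SE; limma adjusted p = 0.383 and 0.192). TAC_BIX differed from TAC_DMSO by 0.23 ± 0.33, and that difference was -0.17 without TAC_DMSO replicate 2 and -0.16 without TAC_BIX replicate 2.

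Tgfb1, the ligand gene most widely expressed and most studied in fibrosis, overlapped between all groups. It measured 7.33 and 7.84 on the sham arrays, 7.72 and 7.51 on the TAC_DMSO arrays and 7.23 and 7.66 on the TAC_BIX arrays. The difference from sham was 0.03 ± 0.24 in TAC_DMSO, with a 95% interval of -0.53 to 0.59, and -0.14 ± 0.24 in TAC_BIX, with an interval of -0.70 to 0.42 (limma adjusted p = 0.957 and 0.751). TAC_BIX differed from TAC_DMSO by -0.17 ± 0.24 (adjusted p = 0.734). Under median scaling the last 2 differences were 0.58 and 0.13, above 0, where the medians of all genes were 0.53 and 0.23. Each of the 3 ligand genes was measured by 1 probe, so no further probe bears on these values.

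Tgfbr1 encodes the kinase receptor that phosphorylates Smad2 and Smad3. It measured 9.05 and 9.06 on the sham arrays, 9.47 and 9.07 on the TAC_DMSO arrays and 9.17 and 9.86 on the TAC_BIX arrays, with 1 high array in each constricted group. The differences from sham were 0.21 ± 0.26 and 0.46 ± 0.26, and that between the constricted groups 0.24 ± 0.26 (limma adjusted p = 0.665, 0.308 and 0.649). A further kept probe was detected on no sham array, 1 of 2 TAC_DMSO arrays and both TAC_BIX arrays, and measured 4.78 and 4.68, 4.85 and 4.75, and 5.01 and 5.06, too close to background to give a fold in TAC_DMSO. In TAC_BIX it was at least 1.04-fold above sham on this background-corrected scale, but it was kept only through the constricted groups. That lower bound sets the mean of the higher group against the lowest signal of any detected probe on the sham arrays.

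Tgfbr2, the gene of the ligand-binding kinase receptor, was spread within every group. It measured 9.62 and 10.09 on the sham arrays, 10.35 and 9.61 on the TAC_DMSO arrays and 10.09 and 10.64 on the TAC_BIX arrays. TAC_DMSO and sham overlapped fully, and TAC_BIX replicate 1 lay level with sham replicate 2. The differences from sham were 0.13 ± 0.31 in TAC_DMSO and 0.52 ± 0.31 in TAC_BIX, and TAC_BIX exceeded TAC_DMSO by 0.39 ± 0.31 (limma adjusted p = 0.848, 0.333 and 0.525). The last difference was 0.019 without TAC_DMSO replicate 2 and 0.76 without TAC_DMSO replicate 1.

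Tgfbr3, the betaglycan gene, had the smallest spread between replicates of the receptor genes. It measured 8.74 and 8.74 on the sham arrays, 8.22 and 8.30 on the TAC_DMSO arrays and 8.60 and 8.66 on the TAC_BIX arrays. No group overlapped another: TAC_DMSO was lowest, and TAC_BIX lay between it and sham. TAC_DMSO differed from sham by -0.48 ± 0.16, with a 95% interval of -0.85 to -0.10, and TAC_BIX from TAC_DMSO by 0.37 ± 0.16, with an interval of -0.01 to 0.74. Neither passed (limma adjusted p = 0.150 and 0.264), and TAC_BIX differed from sham by -0.11 ± 0.16 (adjusted p = 0.703). Under median scaling the latter difference was 0.58, where the median of all genes was 0.53.

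The other kept Tgfbr3 probe was near background. It was detected on no sham array, on 1 of 2 TAC_DMSO arrays and on both TAC_BIX arrays, and measured 4.59 and 4.46 on the sham arrays, 4.59 and 5.36 on the TAC_DMSO arrays and 5.23 and 6.01 on the TAC_BIX arrays. By the same kind of bound TAC_BIX was at least 1.56-fold above sham on this probe, while on the brighter probe it was below sham. The probes thus differed in sign in TAC_BIX against sham. However, the dim probe was kept only through the constricted groups, so its rise there is not independent of the filter. It gives no direction for TAC_DMSO, since the bound there was 1.00-fold.

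**Figure D2:**
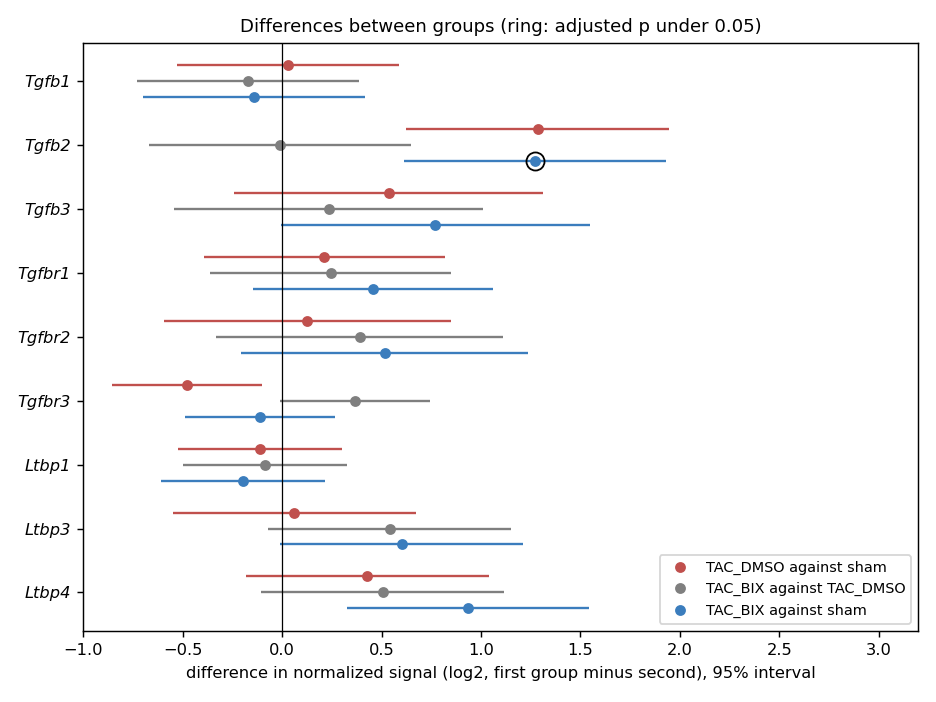
Differences in normalized signal (log2, first group minus second, horizontal axis) of the 9 measured genes with 95% intervals from limma, in 3 comparisons; the black ring marks an adjusted p under 0.05. Only Tgfb2 in TAC_BIX against sham, at 1.27, has a ring, and the grey intervals of TAC_BIX against TAC_DMSO reach across 0 for all 9 genes.

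Ltbp4 encodes the latency protein that binds fibulins, assists elastic fibre assembly and holds latent TGF-beta1. It measured 9.38 and 9.27 on the sham arrays, 9.67 and 9.83 on the TAC_DMSO arrays and 9.86 and 10.65 on the TAC_BIX arrays. The groups did not overlap, with sham lowest and TAC_BIX highest, and TAC_BIX replicate 2 stood apart from the other 5 arrays. TAC_BIX was 1.91-fold above sham, at 10.26 ± 0.56 against 9.32 ± 0.08 (SD, n = 2), which did not pass (0.93 ± 0.26 log2, SE; limma adjusted p = 0.0762). The differences of TAC_DMSO from sham and of TAC_BIX from TAC_DMSO were 0.43 ± 0.26 and 0.51 ± 0.26 (adjusted p = 0.375 and 0.329), and the latter ran from 0.11 to 0.91 with single arrays left out. Without TAC_BIX replicate 2 the difference between TAC_BIX and sham was 0.55 and without TAC_BIX replicate 1 it was 1.34 (adjusted p = 0.325 and 0.0452).

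All 3 Ltbp4 probes were kept and ordered the group means alike. The second probe, detected on all 6 arrays, measured 8.99 and 8.90 on the sham arrays, 9.19 and 9.28 on the TAC_DMSO arrays and 9.44 and 10.03 on the TAC_BIX arrays. The third, detected on 1 of 2 sham arrays, measured 5.07 and 4.52 on the sham arrays, 5.34 and 5.75 on the TAC_DMSO arrays and 5.74 and 6.61 on the TAC_BIX arrays. Against sham these probes differed by 0.29 and 0.75 in TAC_DMSO, and by 0.79 and 1.38 in TAC_BIX.

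Ltbp3, the gene of a latency protein with a known role in skeletal and aortic TGF-beta signalling, was high on 1 array. It measured 8.51 and 8.37 on the sham arrays, 8.73 and 8.28 on the TAC_DMSO arrays and 8.72 and 9.37 on the TAC_BIX arrays. TAC_DMSO enclosed sham, and TAC_BIX replicate 2 stood above the other 5 arrays. TAC_BIX differed from TAC_DMSO by 0.54 ± 0.26 and from sham by 0.60 ± 0.26 (SE; limma adjusted p = 0.301 and 0.195), and TAC_DMSO from sham by 0.06 ± 0.26. With single arrays left out the difference between TAC_BIX and TAC_DMSO ran from 0.21 to 0.87. Of 2 further kept probes, each detected on 1 of 2 sham arrays, 1 differed from sham by 0.69 in TAC_BIX and the other by 0.02.

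Ltbp1, the gene of the archetypal latent TGF-beta binding protein, had the narrowest range over the arrays of the 9 genes, 0.37 log2. It measured 7.41 and 7.14 on the sham arrays, 7.22 and 7.11 on the TAC_DMSO arrays and 7.12 and 7.04 on the TAC_BIX arrays. TAC_DMSO lay partly within sham, and TAC_BIX just below it. The differences from sham were -0.11 ± 0.18 in TAC_DMSO and -0.20 ± 0.18 in TAC_BIX, with 95% intervals of -0.52 to 0.30 and -0.61 to 0.22 (limma adjusted p = 0.754 and 0.522). Of 7 Ltbp1 probes, 2 were detected on all 6 arrays and 4 on none, and the second of the detected probes measured 5.60 and 5.65 on the sham arrays, 4.96 and 5.39 on the TAC_DMSO arrays and 5.50 and 5.24 on the TAC_BIX arrays. On that probe too both constricted groups were lower than sham, with differences of -0.45 and -0.26. Under median scaling Ltbp1 stood 0.30 and 0.50 above sham, where the median of all genes was 0.31 and 0.53.

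**Figure D3:**
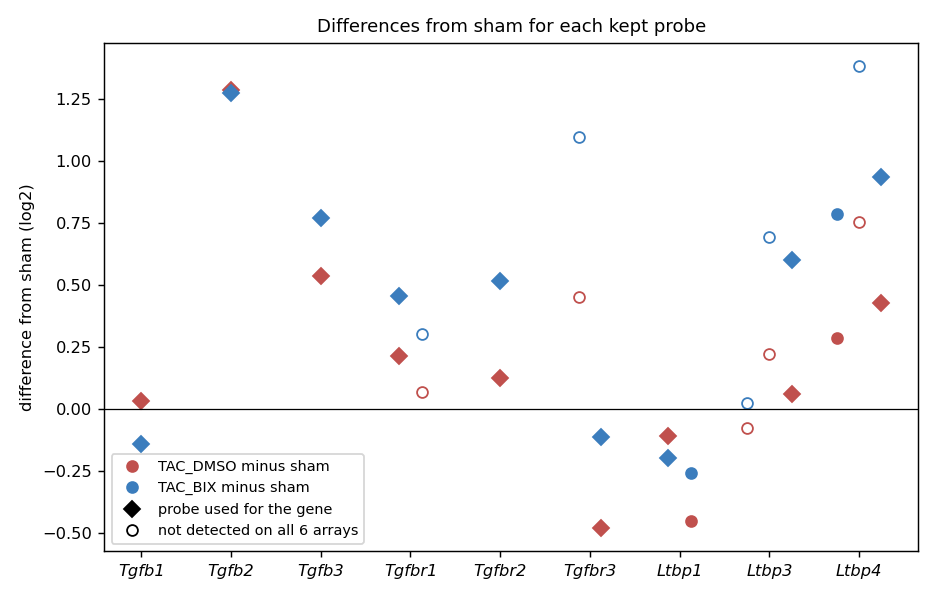
Difference of the group means from sham (log2, vertical axis) for each of the 16 kept probes, by gene; diamonds are the probes used for the genes, open symbols were not detected on all 6 arrays, and those of Tgfbr1 and Tgfbr3 on no sham array, so their heights are not measured differences. The probes of Ltbp4 all lie above 0 and those of Ltbp1 below, while the used probe of Tgfbr3 lies below 0.

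Several members were highest on the array where fibroblast markers were highest, TAC_BIX replicate 2: Tgfb3, Tgfbr1, Tgfbr2, Ltbp3 and Ltbp4. That array also had the most probes detected, 40.9%, and the highest mean deposited signal, 439. The endothelial markers and the smooth muscle and pericyte markers were highest there too. The fibroblast list, expressed as the median deviation of its 11 measured genes from their means over the arrays, was -0.36 and -0.39 on the sham arrays, 0.48 and -0.32 on the TAC_DMSO arrays and -0.08 and 0.68 on the TAC_BIX arrays. Its summed signal was 10500 and 10300 on the sham arrays, 15800 and 9890 on the TAC_DMSO arrays and 14100 and 22000 on the TAC_BIX arrays, summed over these 11 genes; of the 12 markers Ddr2 was not kept, and Postn was detected on 2 arrays. Dcn made up 59.7% to 83.9% of that sum, and without Dcn it was 1690 and 2110, 6380 and 2810, and 3680 and 7040. The corresponding deviations of Tgfb3 were -0.52 and -0.35, then 0.51 and -0.31, then -0.06 and 0.73. Those of Tgfb2 were -0.75 and -0.96, then 0.84 and 0.02, then 0.25 and 0.59. Tgfb2 stood above both sham arrays on TAC_DMSO replicate 2. On that array the fibroblast median deviation was near its sham values, but the fibroblast sum without Dcn, 2810, was above both sham arrays (1690 and 2110). The part of the fibroblast list in these values was not tested.

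Other marker lists had other patterns over the arrays. Endothelial markers stood at -0.18 and -0.65 on the sham arrays, -0.05 and 0.23 on the TAC_DMSO arrays and -0.02 and 0.31 on the TAC_BIX arrays, and their summed signal at 3650 and 3470, 4640 and 5190, and 4480 and 5520. Fabp4 was the 1 of 12 endothelial markers detected on no array. Smooth muscle and pericyte markers, without Cnn1 and Lmod1, were highest in TAC_BIX replicate 2 (0.34), where Ltbp3 and Ltbp4 were also highest. Their summed signal was 18000 and 21200 on the sham arrays, 26200 and 20700 on the TAC_DMSO arrays and 27000 and 33200 on the TAC_BIX arrays. Des, which cardiomyocytes also express strongly, made up 67.0% to 78.7% of that sum, and without Des it was 5950 and 6280, 7410 and 5690, and 6680 and 7090. Macrophage and leukocyte markers, without Ptprc, Itgam and Cd68, deviated by -0.68 and 0.47 on the sham arrays, 0.81 and -0.18 on the TAC_DMSO arrays and -0.34 and -0.02 on the TAC_BIX arrays, with summed signals of 3770 and 7170, 11600 and 5670, and 5570 and 7340. Their part in the members' values was not tested.

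**Figure D4:**
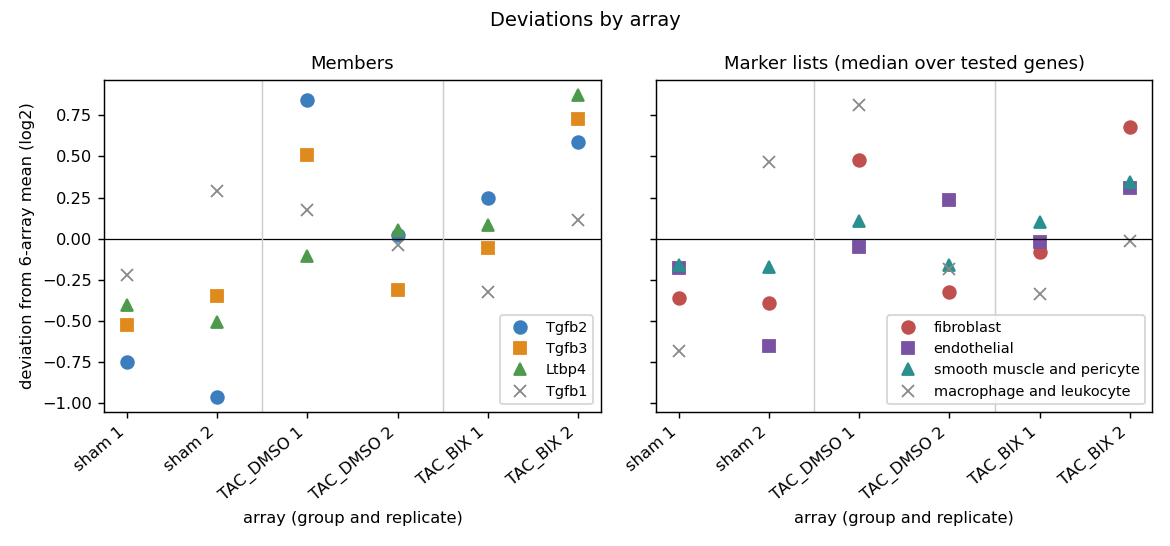
Deviation on each array from the mean over the 6 arrays (log2, vertical axis) for Tgfb2, Tgfb3, Ltbp4 and Tgfb1 (left) and the median deviation of 4 marker lists (right). Tgfb3 and the fibroblast list are both highest on TAC_BIX replicate 2 (0.73 and 0.68) and second highest on TAC_DMSO replicate 1 (0.51 and 0.48).

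The genes with the array profile most like that of Tgfb2 were Itpripl2, Snai2 and Col15a1. Likeness was the root mean square difference between profiles over the 6 arrays after each gene's mean was subtracted, which was 0.10, 0.10 and 0.12 log2. Snai2, a transcription factor gene of mesenchymal cells, measured 4.94 and 4.91 on the sham arrays, 6.59 and 5.97 on the TAC_DMSO arrays and 5.96 and 6.52 on the TAC_BIX arrays. Col15a1, a basement membrane collagen gene, measured 7.19 and 6.72, then 8.60 and 7.78, then 7.83 and 8.48. Snai2 was detected on 4 of 6 arrays and on neither sham array, so its likeness rests in part on values at background. Among the other members Tgfb3 was nearest, at 0.35, and Tgfbr3 farthest, at 0.81.

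The wider pathway was read from 4 lists of 30 genes each, partly overlapping, with 115 distinct genes of which 86 were measured. The first list held genes that store, release or restrain TGF-beta outside the cell, with 23 measured. In TAC_DMSO against sham 0 rose and 1 fell, against 0.209% and 0.199% of all genes, the median was 0.41, and 7 of 23 had an unadjusted p under 0.05, against 22.4% of all genes. The list's median deviation was -0.44 and -0.20 on the sham arrays, 0.22 and -0.24 on the TAC_DMSO arrays and -0.07 and 0.34 on the TAC_BIX arrays, so TAC_DMSO replicate 2 lay among the sham arrays. Itgb6, whose integrin frees latent TGF-beta, fell: it measured 9.90 and 9.97 on the sham arrays, 8.19 and 8.60 on the TAC_DMSO arrays and 8.75 and 8.54 on the TAC_BIX arrays. Its differences from sham were -1.54 ± 0.20 and -1.29 ± 0.20 (limma adjusted p = 0.0485 and 0.0223), and its 3 kept probes had the same sign. With single arrays left out the adjusted p ran from 0.035 to 0.181 in TAC_DMSO, where only leaving out TAC_DMSO replicate 2 kept the call. In TAC_BIX it was lost without either sham array (0.0949 and 0.103) and without TAC_BIX replicate 1 (0.0533) or replicate 2 (0.181). The TAC_DMSO call was also lost with the replicate block (0.115) and without the filter on dim probes (0.0782), and the TAC_BIX call under median scaling (-0.63, adjusted p = 0.0692). In TAC_BIX against sham 1 rose and 1 fell, against 2.74% and 3.91% of all genes, with a median of 0.59, and 13 of 23 had an unadjusted p under 0.05, against 26.4%.

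The gene that rose there was Lum, which encodes the matrix proteoglycan lumican and is also on the fibroblast list. It measured 8.79 and 9.22 on the sham arrays, 10.52 and 9.83 on the TAC_DMSO arrays and 10.47 and 11.40 on the TAC_BIX arrays, a difference of 1.93 ± 0.35 between TAC_BIX and sham (limma adjusted p = 0.0276). That call was lost without sham replicate 1 (0.115), sham replicate 2 (0.101) or TAC_BIX replicate 2 (0.194), with the replicate block (0.0578) and without the filter on dim probes (0.0681). In TAC_BIX against TAC_DMSO 0 passed and 2 of 23 had an unadjusted p under 0.05, against 19.8% of all genes, with a median of 0.15. The smallest p-values were those of the decorin gene Dcn (0.62 ± 0.24), the protease gene Htra1 (0.46 ± 0.18) and Lum (0.77 ± 0.35), with adjusted p = 0.206, 0.209 and 0.280. Across their kept probes the lowest differences were 0.20 for Dcn, 0.28 for Htra1 and 0.57 for Lum. Fbn1, Fbn2 and Lrrc32 were not analysed here, and probes for Itgb8, Cilp and Tll1 were detected on none of the arrays.

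Of the Smads and regulators inside the cell 23 of 30 were measured, and 0 passed in any of the 3 comparisons with limma. An unadjusted p under 0.05 was found for 4, 3 and 7 of them in TAC_DMSO against sham, TAC_BIX against TAC_DMSO and TAC_BIX against sham, against 22.4%, 19.8% and 26.4% of all genes, and the medians were -0.07, 0.25 and 0.23. Smad3, the gene of a transducer that the Tgfbr1 receptor phosphorylates, measured 8.54 and 8.53 on the sham arrays, 7.90 and 7.89 on the TAC_DMSO arrays and 7.96 and 7.71 on the TAC_BIX arrays. All 4 arrays after constriction were below sham, with differences of -0.64 ± 0.17 and -0.70 ± 0.17 (limma adjusted p = 0.105 and 0.0549), and both kept probes had this sign. The latter difference passed under 5 of 15 alternatives, among them the authors' processed values (-0.45, adjusted p = 0.0281) and an offset of 50 (-0.63, 0.0277). Under median scaling, however, it was 0.019, where the median of all genes was 0.53.

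Other regulators with small p-values lay on both sides of 0. In TAC_DMSO against sham Fkbp1a, whose product holds the Tgfbr1 receptor inactive, differed by 0.52 ± 0.20, and Trim33, a ubiquitin ligase gene that acts on Smad4, by -0.45 ± 0.17, with 2 of its 4 kept probes of opposite sign (limma adjusted p = 0.177 and 0.180). In TAC_BIX against TAC_DMSO the differences were 0.63 ± 0.17 for Strap and 0.60 ± 0.19 for Ski, both genes of inhibitors of the pathway, and 0.99 ± 0.27 for Pmepa1, the gene of a feedback inhibitor induced by TGF-beta (adjusted p = 0.106, 0.143 and 0.107). Strap passed under 4 alternatives (0.0224 to 0.0375), which changed the background correction, the offset or the variance model or used the authors' values. Pmepa1 measured 6.21 and 6.67 on the sham arrays, 6.14 and 5.97 on the TAC_DMSO arrays and 6.72 and 7.38 on the TAC_BIX arrays. Its second kept probe differed by only 0.10 between TAC_BIX and TAC_DMSO, and that of Ski by 0.22. In TAC_BIX against sham the kinase adaptor genes Tab1 and Tab2 differed by -0.71 ± 0.22 and 0.52 ± 0.17 (adjusted p = 0.0920 and 0.102), and 2 of the 4 kept Tab1 probes had the opposite sign. Tab2 passed under 5 alternatives (0.00409 to 0.0493), Tab1 with the intensity trend and robust prior (0.0409), and Fkbp1a in TAC_DMSO against sham under median scaling (0.0315). Smad7, Smad9, Bambi, Tgif2 and Foxh1 were detected on none of the arrays, and Smad4 and Smurf2 were not analysed here.

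Of 30 target genes of TGF-beta 26 were measured, and 7 of the 30 are also on the fibroblast or the smooth muscle and pericyte list. In TAC_DMSO against sham 24 of 26 were above 0, against 48.5% of all genes, with a median of 0.60. The list was chosen with earlier results of these data known, so this count is not independent of them. However, 0 passed with limma, and 12 had an unadjusted p under 0.05, against 22.4% of all genes. The list's median deviation was -0.41 and -0.42 on the sham arrays, 0.69 and -0.20 on the TAC_DMSO arrays and -0.17 and 0.16 on the TAC_BIX arrays, so TAC_DMSO replicate 1 stood apart. On that array the fibroblast and macrophage lists were also high, at 0.48 and 0.81, and their part in the result was not tested. In TAC_BIX against sham 22 of 26 were above 0, against 49.6% of all genes, with a median of 0.52. There 2 rose, against 2.74% of all genes: Snai2 and Eln, the elastin gene. Snai2 was not detected on either sham array. It passed the filter on dim probes only through the constricted groups, where it was high, so its rise is partly built into its being tested. On the background-corrected scale it was at least 2.40-fold higher in TAC_BIX (limma adjusted p = 0.0332). In TAC_DMSO it was at least 2.47-fold higher there and did not pass (0.0673). These bounds hold for that scale only. Without background correction the Snai2 difference between TAC_BIX and sham was 0.45 log2, and with the authors' processed values 0.30. In TAC_DMSO it was as low as 0.31 over the alternatives. Eln measured 6.32 and 5.84 on the sham arrays, 7.61 and 7.33 on the TAC_DMSO arrays and 7.12 and 8.16 on the TAC_BIX arrays, with differences of 1.39 ± 0.34 and 1.56 ± 0.34 from sham (adjusted p = 0.0888 and 0.0414). In TAC_BIX the Eln call was lost without sham replicate 1 (0.0992), sham replicate 2 (0.16) or TAC_BIX replicate 2 (0.225), and the Snai2 call without either sham array (0.119 and 0.127) or either TAC_BIX array (0.0595 and 0.254). Without TAC_BIX replicate 2 the Eln difference was 1.03. Both calls were also lost with the authors' processed values (Eln 0.66, adjusted p = 0.101; Snai2 adjusted p = 0.125), without background correction (Eln 0.86, 0.0554; Snai2 0.0783), without the filter on dim probes (0.0941 and 0.0724) and with the replicate block (0.0812 and 0.0707).

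Id2, a gene of an inhibitor of basic helix-loop-helix factors, was highest on the TAC_DMSO arrays. It measured 5.81 and 5.63 on the sham arrays, 7.51 and 6.63 on the TAC_DMSO arrays and 5.69 and 6.38 on the TAC_BIX arrays. The difference from sham was 1.35 ± 0.33 in TAC_DMSO, and TAC_BIX differed from TAC_DMSO by -1.03 ± 0.33 (limma adjusted p = 0.0888 and 0.156; the first is 0.00643 to 0.288 over the alternatives). Cdkn2b, the gene of a cell cycle inhibitor, differed by -0.77 ± 0.32 in the same comparison (adjusted p = 0.232). Pmepa1, also a target gene, had a smaller adjusted p there than Id2 and Cdkn2b and was higher in TAC_BIX. Its difference was 0.99 on the brighter probe and 0.10 on the other. There 0 of 26 target genes passed, 3 had an unadjusted p under 0.05, against 19.8% of all genes, and the median was -0.11.

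The activin, BMP and GDF branches had 18 of 30 genes measured. Fstl3, the gene of a secreted activin antagonist, rose in TAC_BIX against sham, the 1 of 18 that did, against 2.74% of all genes. It was not detected in sham (4.49 and 4.41) and measured 5.56 and 5.20 in TAC_DMSO and 5.22 and 5.62 in TAC_BIX. Fstl3 thus passed the filter on dim probes only through the constricted groups, and its rise is partly built into its being tested. On the background-corrected scale it was at least 1.36-fold higher in TAC_BIX (limma adjusted p = 0.0409). In TAC_DMSO it was at least 1.32-fold higher there and did not pass (0.0775). These bounds hold for that scale only. Without background correction the Fstl3 difference between TAC_BIX and sham was 0.31 log2, and with the authors' processed values 0.19. In TAC_DMSO it was as low as 0.18 over the alternatives. The call was lost without either sham array (0.126 and 0.141) or either TAC_BIX array (0.0673 and 0.275). It was also lost with the authors' processed values (0.143), without background correction (0.0962), with an offset of 50 (0.0823), without the filter on dim probes (0.066) and with the replicate block (0.0784). In TAC_DMSO against sham 0 of 18 passed and 6 had an unadjusted p under 0.05, against 22.4% of all genes. Bmpr2, a BMP receptor gene, differed there by -0.61 ± 0.17, with 1 of 3 kept probes of opposite sign, and Inha, an inhibin subunit gene, by -0.52 ± 0.16 (adjusted p = 0.106 and 0.130). Bmpr2 passed under 3 alternatives (0.0418 to 0.0489).

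With the drug 0 of these 18 genes passed, and 0 had an unadjusted p under 0.05, against 19.8% of all genes. The activin subunit gene Inhba differed by -0.77 ± 0.37 between TAC_BIX and TAC_DMSO, the activin receptor gene Acvr2a, detected on 1 of 2 TAC_DMSO arrays, by 0.47 ± 0.23, and the BMP receptor gene Bmpr1a by 0.35 ± 0.18 (limma adjusted p = 0.294, 0.311 and 0.321). The Inhba difference was -0.31 without TAC_DMSO replicate 1 and -1.24 without TAC_DMSO replicate 2. The list medians were 0.04, 0.12 and 0.17 in the 3 comparisons.

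**Figure D5:**
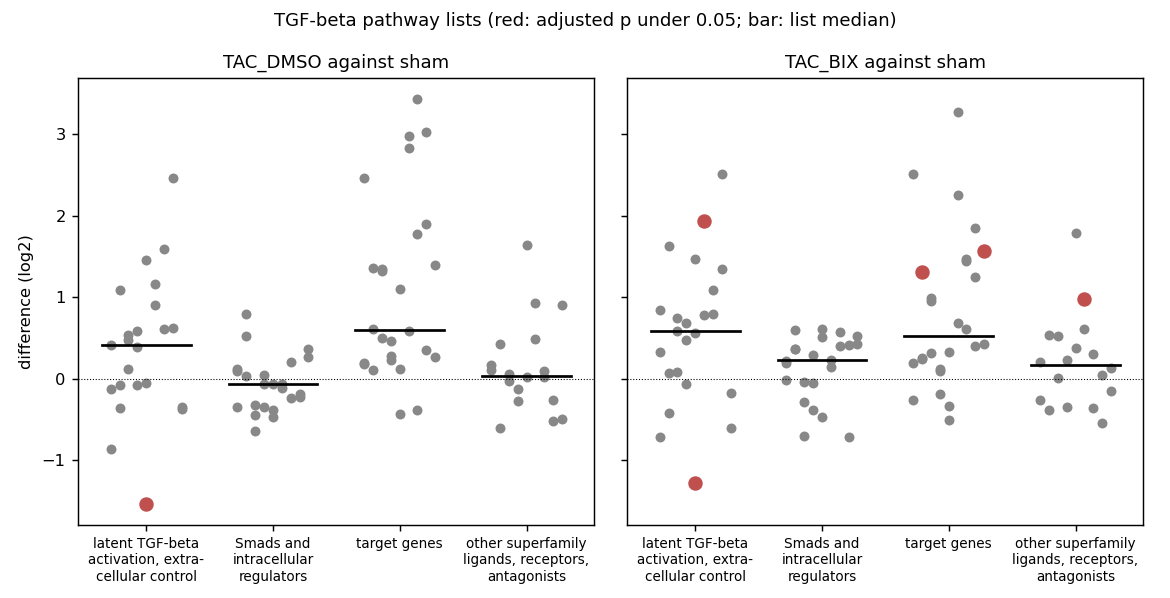
Differences from sham (log2, vertical axis) of the measured genes of 4 TGF-beta pathway lists in TAC_DMSO (left) and TAC_BIX (right); red points passed an adjusted p under 0.05 and bars are list medians. The target genes have medians of 0.60 and 0.52, and the 5 red points on the right are Itgb6, Lum, Snai2, Eln and Fstl3.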

How the data were processed

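Gene expression was measured on 6 one-colour Illumina arrays. The authors deposited an average bead signal intensity per probe and array, not normalized between arrays, and a detection p-value beside each. The authors' processed table holds log2 values with a median of 7.19 in each column, which rank probes as the signals do. The tools GenomeStudio 2011.1, lumi and limma are listed per the submitters' processing notes, without roles, and the scale's centring is not stated. The deposited processed values served as an alternative.

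Background correction from the detection p-values and quantile normalization used limma's neqc (version 3.58.1, R 4.3.3) and an offset of 16. Of 45281 probes, 34885 had 1 gene in the platform's annotation, 18 several and 10378 none; 34807 matched the reference gene table (GRCm38.p6) by Entrez identifier. Probes detected (p under 0.05) on at least 2 of 6 arrays were kept. The kept probe with the highest mean stood for each of 10538 genes, and 4005 genes had several kept probes. Group means were estimated from all 6 arrays by lmFit and eBayes (residual degrees of freedom 3, prior 4.62), and p-values were two-sided and adjusted by Benjamini-Hochberg over all 10538 genes. They measure the spread among these arrays, whose small number limits every value; an exact permutation test of 2 against 2 arrays cannot go below p = 0.333. The fit was tested on simulated data.

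Members, lists and tests were chosen with earlier results of these data known. Named were all members, in each list the genes that passed or else the 3 with the smallest p in each comparison, and the 3 genes most like the member with the smallest p in TAC_DMSO against sham. Promoter windows were found for 8 of the 10 members. Alternatives changed the background correction, normalization, filter, offset, variance model, probe rule, the authors' values, a replicate block and each array left out. Erythroid markers had 3 measured genes of 7, 2 of them detected on all 6 arrays, with signals summed over the 3 of 6950 and 810 on the sham arrays, 12600 and 29100 on the TAC_DMSO arrays and 7810 and 1780 on the TAC_BIX arrays.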

Additional observations from a re-analysis of the deposited data

How the results depend on the processing

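Of the 10538 genes tested, 43 passed in TAC_DMSO against sham, 0 in TAC_BIX against TAC_DMSO (2090 at an unadjusted p under 0.05) and 701 in TAC_BIX against sham, and 0, 0 and 1 of the 9 measured members. In TAC_DMSO against sham the gene count was 284 without background correction, 956 under median scaling (932 higher, 24 lower, against 22 and 21), 93 with the authors' processed values, 1 without a filter on dim probes, 134 for genes detected on all 6 arrays, 275 with an offset of 50, 426 with an intensity trend and robust prior and 0 with the replicate block. With single arrays left out it ran from 0 to 150, the latter without TAC_DMSO replicate 2. In TAC_BIX against TAC_DMSO the same alternatives gave 709, 9, 642, 0, 359, 563, 699 and 0 genes, and 0 to 6 with arrays left out. In TAC_BIX against sham median scaling gave 3771 (3642 higher, 129 lower, against 289 and 412), no filter 369, the trend and robust prior 1136, the replicate block 253 and arrays left out 0 to 770, with 2 without sham replicate 1, 0 without sham replicate 2 or TAC_BIX replicate 2 and 260 without TAC_BIX replicate 1.

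The number of members called in TAC_DMSO against sham became 1 (Tgfb2) under median scaling and with the trend and robust prior, and was 0 to 1 with arrays left out. In TAC_BIX against TAC_DMSO it was 0 under all 15 alternatives. In TAC_BIX against sham it was 0 without background correction, with the authors' values, without a filter and with the replicate block (Tgfb2 adjusted p = 0.0746), 6 under median scaling, 2 with an offset of 50 or the trend and robust prior (Tgfb2 and Ltbp4), and 0 to 1 with arrays left out. Without TAC_BIX replicate 1 the member called was Ltbp4. In TAC_DMSO against sham 9.07% of all genes passed under median scaling and 4.04% with the trend and robust prior. In TAC_BIX against sham 35.8% passed under median scaling, 9.46% with an offset of 50 and 10.8% with the trend and robust prior. There 9.17% passed without background correction, 7.78% with the authors' values, 1.94% without a filter and 2.4% with the replicate block. Signs turned under median scaling for Ltbp1 (0.30, 0.20 and 0.50 in the 3 comparisons), Tgfb1 (0.13 in TAC_BIX against TAC_DMSO and 0.58 in TAC_BIX against sham), Tgfb2 (0.28 in TAC_BIX against TAC_DMSO), Tgfbr3 (0.58) and Smad3 (0.019), both in TAC_BIX against sham. Under that scaling the median of all genes was 0.31, 0.23 and 0.53. Averaging kept probes turned Trim33 in TAC_DMSO against sham (0.15), Ltbp1 in TAC_BIX against TAC_DMSO (0.055) and Tgfbr3 in TAC_BIX against sham (0.49).

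With arrays left out, differences in TAC_DMSO against sham ran from -0.22 to 0.29 for Tgfb1, -0.25 to 0.49 for Tgfbr2, -0.24 to 0.024 for Ltbp1 and -0.17 to 0.29 for Ltbp3. In TAC_BIX against TAC_DMSO they ran from -0.39 to 0.044 for Tgfb1, -0.43 to 0.40 for Tgfb2, -0.17 to 0.64 for Tgfb3 and -0.11 to 0.59 for Tgfbr1, and in TAC_BIX against sham from -0.39 to 0.11 for Tgfb1. The cause of these changes was not tested. The labels do not say that replicate numbers pair arrays, and deviations of same-numbered arrays correlated at -0.24, 0.09 and -0.16 across genes. Where an array was left out, the lone array of its group was taken to vary like the other groups. Signals near background, as for Tgfb2 and Tgfb3 in sham, limit the size of their differences.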
